A study of Mus musculus with 3 samples.

Results

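The venous endothelium of the aged thymus was followed in 508 cell barcodes, out of 4400 endothelial cell (EC) barcodes and 14956 kept barcodes of 17677 called. A barcode was kept with more than 1000 detected genes and under 20% of its unique molecular identifiers (UMIs, counted transcript molecules) in mitochondrial genes. It was endothelial with at least 2 UMIs of Pecam1 and Cdh5 together, an adhesion receptor and a cadherin of endothelial junctions. It was venous (vEC) with at least 2 UMIs of Selp, Ackr1 and Vwf together, at most 1 UMI of the arterial genes Gja5, Gja4 and Sox17 together, and none of Prox1, Epcam or Pdgfra, which mark lymphatic, epithelial and mesenchymal cells. The cells came from 3 single-cell RNA libraries of the CD45- thymic stroma of untreated C57BL/6 mice 20 months of age, each the sole library of its group (n = 1): Foxn1 lineage trace female (Foxn1Lin female), Foxn1 lineage trace male (Foxn1Lin male) and wild type male. In the lineage trace, a Cre driven by Foxn1, the transcription factor of thymic epithelium, opens a tdTomato reporter that the cell and its descendants keep. The protocol is worded alike for all 3 libraries and names pooled thymi of female mice, and the wild type library is CD45- in its title but CD45-PECAM1+ in its cell type field. The vECs went with the titles in sex: Xist was at 363 CPM (UMIs of the gene per 1000000 UMIs of the class) in those of Foxn1Lin female and 0.497 in those of Foxn1Lin male, and the Y-linked Uty at 0 and 69.6. The Foxn1Lin female library gave 104 vECs, the male one 191 and the wild type library 213, and groups of 3 values below keep this order.

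Veins and postcapillary venules are the part of the vascular bed where blood cells leave the circulation. Their endothelium stores P-selectin (Selp) and von Willebrand factor (Vwf) in Weibel-Palade bodies, and carries Ackr1, an atypical receptor that transports chemokines across the venular wall. In the thymus, bone marrow progenitors enter through portal endothelium that bears P-selectin, mature T cells leave along a gradient of sphingosine 1-phosphate, and ECs secrete Bmp4 when the organ regenerates.

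The genes that chose the vECs are given as a description, with no test. Selp was at 2495, 5124 and 5766 CPM in the vECs against 128, 1111 and 505 in all other ECs. Ackr1 was at 338, 837 and 509.9 CPM against 16.9, 149 and 50.0. Vwf was at 632, 795 and 807 CPM against 37.7, 169 and 114. UMIs of all 3 genes were found in 31.7%, 69.6% and 65.3% of the vECs, and Vwf alone in 24.0%, 5.76% and 11.7%, so the rule rested on Vwf more often in Foxn1Lin female. The median vEC held 10.5, 46 and 48 UMIs of the 3 genes, and the fullest held 265, 424 and 385. On the arterial side, Sox17 was at 42.8, 25.4 and 30.3 CPM against 193, 267 and 146 in all other ECs, and Gja4 at 7.56, 0.497 and 0.473 against 31.4, 21.0 and 26.4. Barcodes close to the threshold looked different from the bulk of the vECs. The vECs with exactly 2 UMIs of Selp, Ackr1 and Vwf (19, 9 and 11 barcodes) had Plvap at 261, 403 and 282 CPM and the capillary gene Gpihbp1 at 1142, 1256 and 188 CPM. The ECs just outside, with exactly 1 such UMI (82, 25 and 29), had Plvap at 211, 466 and 241 CPM and Gpihbp1 at 1638, 1182 and 291 CPM. The vECs with 3 or more had Plvap at 987, 1700.3 and 1296 CPM and Gpihbp1 at 420.5, 123 and 69.7 CPM. On the arterial limit, vECs with exactly 1 UMI of Gja5, Gja4 and Sox17 (43, 52 and 68) had Plvap at 692, 1607 and 1266 CPM, and otherwise venous ECs with exactly 2, just outside (14, 32 and 33), had it at 310.3, 1839 and 1315 CPM.

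**Figure D1:**
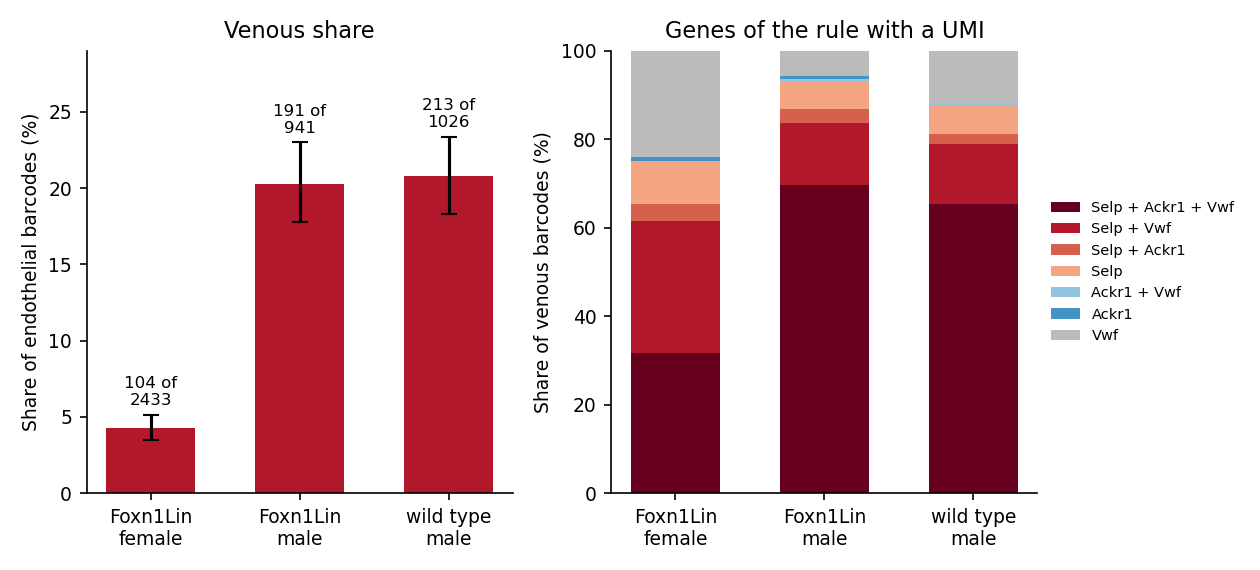
Left, vECs as a percent of the EC barcodes of each library, with 95% Clopper-Pearson intervals and barcode numbers. Right, the percent of the vECs of each library in which the rule was met by UMIs of Selp, Ackr1 and Vwf in each combination; all 3 genes were seen in 31.7% of the Foxn1Lin female vECs against 69.6% and 65.3% in the male libraries.

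The share of ECs that met the rule was 4.27% for Foxn1Lin female (95% Clopper-Pearson interval 3.51 to 5.16), 20.3% for Foxn1Lin male (17.8 to 23.0) and 20.8% for wild type (18.3 to 23.4). The intervals of the male libraries overlapped and that of the female library lay below both. With 1 library a group no test was possible, and sex, pool and library cannot be told apart. Among ECs without Prox1, Epcam and Pdgfra the shares were 5.20%, 23.8% and 26.0%. ECs outside the venous and arterial gates were 50.5%, 27.3% and 31.4% of ECs (1229, 257 and 322 barcodes), more than the venous or the arterial-gated class in each library. Depth moved with the share. The median EC that was not venous held 4603 UMIs in Foxn1Lin female against 7497.5 and 8279, and the median vEC 6245 against 9809 and 9016, and the part of depth in the share was not tested. With all barcodes chosen on a random part of their UMIs equal to the rest, the shares were 4.50%, 25.6% and 25.1%.

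The libraries held 53366016, 33386621 and 61258534 UMIs, and the vECs 794023, 2011730 and 2114105 of them. Their median mitochondrial share was 2.22%, 4.16% and 4.46%, against 1.80%, 2.80% and 2.90% in the other ECs. Called barcode sequences shared by any 2 libraries numbered 3 to 14, and 2 vECs of the wild type were also called in Foxn1Lin female. Intervals and limits below cover counting error only.

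Comparisons were made on UMI counts summed per library, vECs against a second class of ECs in the same libraries (3 pairs of sums), with edgeR's quasi-likelihood test and the library as a block. The classes were all other ECs (2329, 750 and 813 barcodes), arterial-gated ECs with at least 2 UMIs of Gja5, Gja4 and Sox17 and at most 1 of Selp, Ackr1 and Vwf (606, 251 and 182), and ECs outside both gates (1229, 257 and 322). Like the vECs, the last 2 classes held no UMI of Prox1, Epcam and Pdgfra, whereas all other ECs also took in 433, 140 and 206 barcodes with such a UMI and 61, 102 and 103 that met both gates. A log2 difference below is vECs over the class named, given ± its standard error (SE), and a pair of log2 differences is against arterial-gated ECs and then against ECs outside both gates. The p-values measure the spread between these 3 libraries, which differ in sex and genotype. Calls that ended when 1 library was left out, which leaves 2 pairs of sums, are named with their log2 difference at the end of each group of genes. Against all other ECs, 9.24% of 13199 genes tested were higher in vECs and 11.6% lower at an adjusted p under 0.05. Against arterial-gated ECs 12.6% of 10307 genes were higher and 9.66% lower, and against ECs outside both gates 12.2% of 10463 and 7.72%. Counts of list members below are to be read against these shares. Median log2 differences over all genes were -0.04, -0.01 and -0.02. The tests scale the sums by trimmed mean of M-values (TMM), while CPM values are per total UMIs, so a log2 difference lies above the ratio of the CPM values: totals in place of TMM moved all genes by a median of -0.29, -0.15 and -0.26 on the log2 scale. By totals 790 genes were higher and 2364 lower against all other ECs in place of 1219 and 1526, 988 and 1372 against arterial-gated ECs in place of 1302 and 996, and 848 and 1581 against ECs outside both gates in place of 1281 and 808. The lean to lower genes against all other ECs turned in 5 alternatives, to 1269 higher and 1004 lower without barcodes of other cell types, 1243 and 901 without ECs bearing Prox1, Epcam or Pdgfra, 757 and 592 after thinning to 2000 UMIs, 994 and 875 with members chosen on a part of the UMIs and 567 and 519 without the wild type.

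Plvap, the diaphragm protein of fenestrated and venous endothelium (chr8:71497765-71511752, minus strand of GRCm38), is the one marker of the venous label that the rule did not read. It was at 868, 1660.3 and 1266 CPM in the vECs, 154, 564 and 321 in all other ECs, 151, 304 and 298 in arterial-gated ECs and 158, 465 and 372 in ECs outside both gates. The lowest vEC sum lay above the highest sum of each other class. The log2 difference was 2.29 ± 0.21 against all other ECs (adjusted p = 0.000454), 2.50 ± 0.15 against arterial-gated ECs and 2.28 ± 0.16 against ECs outside both gates. A Plvap UMI was seen in 68.3%, 92.1% and 89.7% of vECs, in 23.5%, 45.2% and 48.8% of all other ECs and in 14.0%, 29.7% and 25.1% of fibroblasts, which should lack it and were as deep (median 7347, 9419.5 and 8294 UMIs). The marker that the rule left out was thus higher in the vECs of all 3 libraries. The label and its markers were chosen with earlier results of these data known, so this is no independent check. The study itself used Plvap together with Cldn5 to mark capillary ECs.

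Of the 18 genes of a venous identity list, 14 were higher and 0 lower in vECs than in all other ECs, with a median log2 difference of 1.44. Against arterial-gated ECs 14 were higher and 0 lower (median 1.69), and against ECs outside both gates 13 and 0 (median 1.91). Nr2f2 (COUP-TFII), the transcription factor that sets venous fate, was at 137, 232 and 189.7 CPM in vECs, 81.9, 94.2 and 71.1 in arterial-gated ECs and 59.4, 99.8 and 33.1 outside both gates. The vEC sums lay above all others, with log2 differences of 1.31 ± 0.18 and 1.87 ± 0.29. Lrg1, a secreted glycoprotein that modulates TGF-beta signalling, was at 1042, 2328 and 759 CPM against 22.2, 128 and 32.4 in arterial-gated ECs and 27.1, 151 and 34.7 outside both gates, and its vEC sums again lay above all others, with log2 differences of 4.88 ± 0.25 and 4.80 ± 0.25. Bst1 (CD157), a cell-surface cyclic ADP-ribose hydrolase, was at 69.3, 124 and 123 CPM in vECs against 2.37, 0.38 and 0.569 in arterial-gated ECs and 3.29, 0 and 2.63 outside both gates. The log2 differences were 6.21 ± 0.41 and 5.47 ± 0.44. ECs that met both gates held it too, at 23.2, 68.3 and 79.0 CPM. The cytokine receptor genes of the list were higher throughout. Il1r1, the interleukin-1 receptor, differed by 3.17 ± 0.16 and 3.17 ± 0.24, Il6st, the shared signalling chain (gp130) of interleukin-6 type cytokines, by 2.42 ± 0.17 and 2.67 ± 0.20, and Csf2rb, the common beta chain, by 1.05 ± 0.14 and 1.53 ± 0.16. For all 3 genes the vEC sums lay above every sum of the other classes. Apoe, the apolipoprotein of lipid transport, was at 3011, 5342 and 2754 CPM in vECs against 1167, 657 and 418 outside both gates (2.64 ± 0.36). Among the genes that did not pass against all other ECs were Ephb4, the venous receptor of ephrin-B2 (54.2, 78.5 and 82.8 CPM in vECs against 42.3, 77.4 and 77.7), Icam1 (530.2, 661 and 449 against 421, 684 and 535) and the apelin receptor Aplnr (51.6, 22.9 and 27.9 against 36.5, 34.9 and 60.2), all with overlapping sums.

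**Figure D2:**
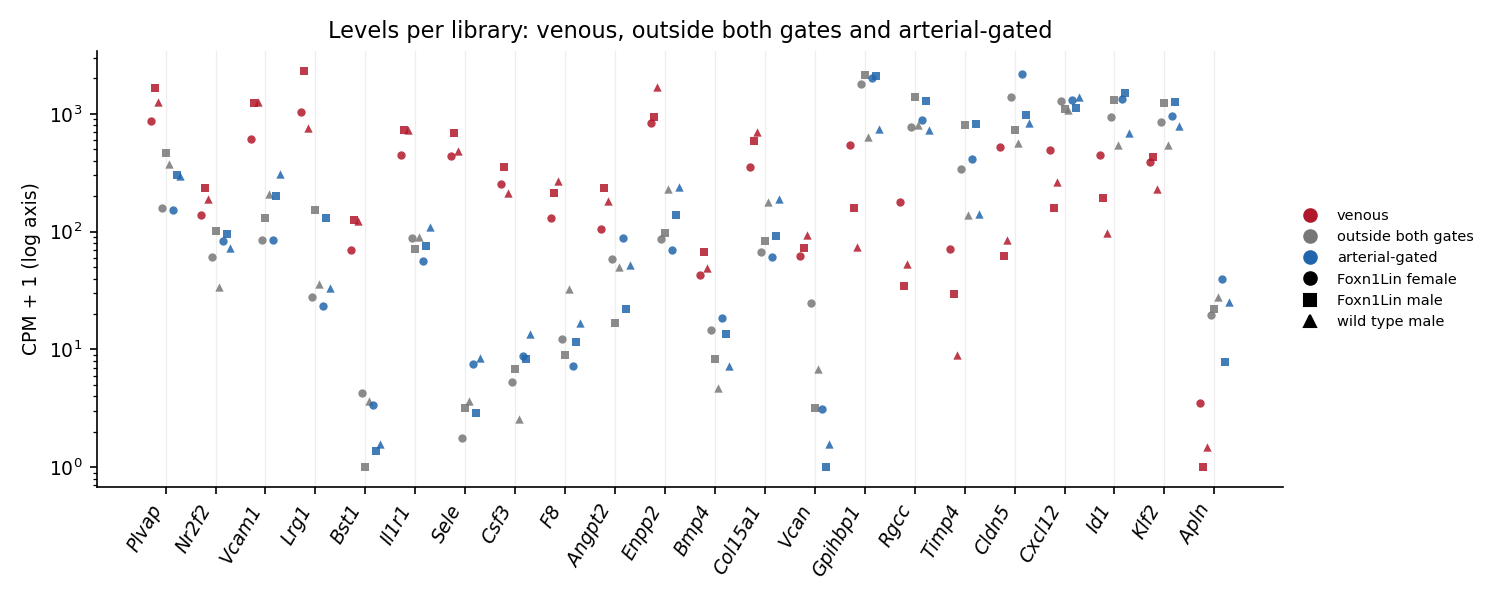
Levels of 22 genes as CPM + 1 on a log axis, in vECs, ECs outside both gates and arterial-gated ECs, with 1 point per library (circle Foxn1Lin female, square Foxn1Lin male, triangle wild type). Plvap, Nr2f2, Lrg1, Bst1, Sele, Csf3, F8, Enpp2, Bmp4 and Col15a1 had all vEC points above those of both other classes, and Cldn5, Cxcl12, Id1, Klf2 and Apln had them below. The vEC points of Gpihbp1 lay below those of ECs outside both gates.

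Genes of leukocyte and progenitor entry split. Of 24 list members, 19 were tested, and 5 were higher and 5 lower than in all other ECs (median 0.24), 5 and 5 against arterial-gated ECs (median -0.02), and 5 and 6 against ECs outside both gates (median 0.10). The higher side held the adhesion receptors Sele and Vcam1. Sele (E-selectin, chr1:164048234-164057677, plus strand), which slows rolling leukocytes, was at 439.5, 693 and 483 CPM in vECs, 6.45, 1.90 and 7.39 in arterial-gated ECs and 0.773, 2.17 and 2.63 outside both gates. Its sums did not overlap, and its log2 differences were 6.75 ± 0.35 and 8.56 ± 0.26. A Sele UMI was found in 41.3%, 70.7% and 63.8% of vECs and in 5.70%, 7.22% and 6.35% of fibroblasts. Vcam1 (chr3:116109949-116129688, minus strand), the ligand of the integrin that progenitors and lymphocytes use to arrest, was at 616, 1246 and 1270.0 CPM in vECs against 83.2, 200.2 and 308 in arterial-gated ECs and 83.5, 129 and 207 outside both gates. Again no sum overlapped (2.66 ± 0.17 and 3.18 ± 0.17), while the lowest vEC sum of Vcam1 was that of Foxn1Lin female. Cd34, a sialomucin that can carry selectin ligands, was higher by 0.82 ± 0.13 against ECs outside both gates (373, 419 and 489.6 against 233, 290.0 and 356 CPM). The lower side held the chemokine Cxcl12 and surface proteins of the capillary wall. Cxcl12, which attracts progenitors through Cxcr4, was at 491, 158 and 261 CPM in vECs against 1309.7, 1130.2 and 1384 in arterial-gated ECs and 1275, 1093 and 1078 outside both gates, with log2 differences of -2.07 ± 0.23 and -1.80 ± 0.24. All vEC sums lay below all others, as they did for the sialomucin Podxl (-1.17 ± 0.22) and Ly6c1 (-1.43 ± 0.21). Kitl, the stem cell factor that sustains progenitors, did not pass in any of the 3 comparisons (751, 986 and 999 CPM in vECs, 867, 1045 and 1131 outside both gates). The chemokines Ccl25 and Ccl19, products of epithelium and of other stroma, were lower against all other ECs (-3.07 and -3.45) and ECs outside both gates (-1.03 and -2.24), but neither passed against arterial-gated ECs (-0.03 and 0.55), and Ccl25 did not pass without ECs bearing Prox1, Epcam or Pdgfra (-0.53), while Ccl19 did. Jam3, a junctional adhesion molecule, passed against all other ECs alone (46.6, 65.6 and 90.8 CPM against 44.0, 49.5 and 54.6, 0.73 ± 0.21), with overlapping sums, and not without ECs bearing Prox1, Epcam or Pdgfra (0.23), and its log2 differences were 0.22 and 0.21 against the other classes. Glycam1, the mucin ligand of L-selectin, was higher in all 3 comparisons, and the chemokine Ccl21a against arterial-gated ECs (5.81) and ECs outside both gates (4.05), with its Foxn1Lin male vEC sum below both. Few barcodes held nearly all of Glycam1 and Ccl21a, which are described with the libraries below. Against ECs outside both gates, calls ended for Podxl without Foxn1Lin male (-1.08), Ccl25 without Foxn1Lin female (-0.83), without Foxn1Lin male (-1.11) and without the wild type (-1.15), Ccl19 without Foxn1Lin male (-1.82) and Ccl21a without Foxn1Lin female (1.03), and without Foxn1Lin female too few UMIs of Ccl21a were left to test it against arterial-gated ECs. A call against all other ECs ended for Jam3 without Foxn1Lin male (0.82) and without the wild type (0.45) and with library totals in place of TMM (0.44).

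The genes of sphingosine 1-phosphate handling were tested 10 of 10 against all other ECs, with 2 higher and 2 lower (median 0.04). Enpp2 (chr15:54838901-54952892, minus strand) encodes autotaxin, the secreted enzyme that makes lysophosphatidic acid and binds lymphocyte integrins. It was at 836, 936 and 1679 CPM in vECs, 68.8, 136 and 239 in arterial-gated ECs and 85.3, 95.5 and 229 outside both gates. The sums did not overlap and the log2 differences were 3.20 ± 0.18 and 3.41 ± 0.15. Spns2, the exporter that releases sphingosine 1-phosphate from endothelium, was at 81.9, 139.7 and 136 CPM against 50.5, 70.3 and 84.1 in arterial-gated ECs and 51.2, 68.0 and 85.1 outside both gates, higher in vECs within each library (0.95 ± 0.15 and 1.06 ± 0.15) although the range of the vEC sums reached into that of the other classes. Plpp1, a phosphatase that degrades lysophospholipids at the cell surface, was lower (-1.12 ± 0.20 and -1.40 ± 0.29), with 119.6, 96.4 and 111 CPM in vECs and 193, 558 and 357 outside both gates. The receptor S1pr1 did not pass (407, 299.7 and 325 CPM in vECs, 394, 469 and 395 outside both gates, -0.03), nor did the kinase Sphk1 (11.3, 12.4 and 11.4 against 7.54, 2.89 and 7.36, 1.23). The receptor S1pr3 was lower against all other and arterial-gated ECs (-2.78 and -2.00), and the lyase Sgpl1 against all other ECs (-0.61). Against arterial-gated ECs 2 of 9 members were higher and 2 lower (median 0.13), and against ECs outside both gates 2 of 9 and 1 (median 0.06). Without ECs bearing Prox1, Epcam or Pdgfra, S1pr3 (-1.57) and Sgpl1 (0.05) did not pass against all other ECs. Calls ended for Sgpl1 without Foxn1Lin female (-0.61), without Foxn1Lin male (-0.64) and without the wild type (-0.52) and S1pr3 without the wild type (-2.77) against all other ECs, for S1pr3 without the wild type (-2.14) against arterial-gated ECs, and for Plpp1 without Foxn1Lin male (-0.94) against ECs outside both gates.

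In the BMP pathway, the ligand Bmp4 and the target genes Id1 and Id3 went apart. Bmp4 (chr14:46383520-46390669, minus strand) was at 41.6, 66.6 and 48.2 CPM in vECs, 15.4, 20.2 and 11.9 in all other ECs, 17.6, 12.5 and 6.25 in arterial-gated ECs and 13.5, 7.23 and 3.68 outside both gates. All vEC sums exceeded all others, by 2.02 ± 0.22, 2.23 ± 0.31 and 2.86 ± 0.41 on the log2 scale. The co-receptor Eng was higher too (1063, 907 and 879 against 718, 636 and 681 CPM, 0.74 ± 0.13), as were the receptor Bmpr2 (0.72 ± 0.13, not called against arterial-gated ECs at 0.43) and the signal transducer Smad5 (0.72 ± 0.15). Of the inhibitor of differentiation genes, which BMP signals switch on, Id1 and Id3 were lower in all 3 comparisons. Id2 was lower against all other ECs (-0.73 ± 0.22), where it did not pass without ECs bearing Prox1, Epcam or Pdgfra (-0.41), and did not pass against arterial-gated ECs (-0.47) or ECs outside both gates (-0.23). Id1 was at 449.6, 190.4 and 96.0 CPM in vECs, 1346, 1512 and 687 in arterial-gated ECs and 948, 1315 and 543 outside both gates (-2.33 ± 0.24 and -1.86 ± 0.29), and its vEC sums lay below those of both classes. Id3 was at 340.0, 461 and 222 CPM against 522, 1061 and 541 outside both gates (-0.78 ± 0.15). A second ligand, Bmp6, was lower in vECs at 178, 56.7 and 131 CPM against 395, 443 and 355 (-1.56 ± 0.32), and not called against all other ECs (-0.71). Over the list, 4 of 17 members were higher and 7 lower against all other ECs (median -0.50), 3 and 4 of 16 against arterial-gated ECs (median -0.33), and 5 and 3 of 15 outside both gates (median 0.05). Smad5 did not pass against ECs outside both gates with library totals in place of TMM (0.45). Calls in that comparison ended for Eng without Foxn1Lin male (0.74) and without the wild type (0.72), Bmpr2 without Foxn1Lin male (0.75) and without the wild type (0.70), Smad5 without Foxn1Lin male (0.80) and without the wild type (0.59) and Id3 without Foxn1Lin male (-0.68) and without the wild type (-0.74), and against all other ECs for Id2 without Foxn1Lin male (-0.82) and without the wild type (-0.40).

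The capillary program was low. Of 16 members, 9 were lower and 2 higher than in all other ECs (median -1.14), 13 lower and 1 higher against arterial-gated ECs (median -1.71) and 12 and 1 outside both gates (median -1.50). Gpihbp1 (chr15:75596628-75599481, plus strand), which carries lipoprotein lipase to the capillary lumen, was at 539, 158 and 73.3 CPM in vECs against 1795, 2149 and 629.5 outside both gates (-2.60 ± 0.34). Its vEC sums lay below, but Foxn1Lin female vECs held several times more than those of the male libraries. A Gpihbp1 UMI was found in 59.6%, 23.6% and 22.5% of vECs, 87.0%, 74.3% and 65.1% of all other ECs and 13.3%, 2.15% and 0.953% of fibroblasts. Its partner Lpl was lower (79.3, 83.5 and 27.0 against 377, 1170.1 and 264 CPM, -2.90 ± 0.27), as were the cell cycle and complement response gene Rgcc (-3.50 ± 0.52), the metalloproteinase inhibitor Timp4 (-3.46 ± 0.42) and the fatty acid carriers Fabp4 (-1.40 ± 0.23) and Cd36 (-1.60 ± 0.22). The water channel Aqp1 went the other way, at 2106, 3190.3 and 2619 CPM in vECs, 1899.7, 2087 and 1233 in arterial-gated ECs and 1475, 1956 and 945 outside both gates (0.76 ± 0.21 and 1.15 ± 0.24). Car4, a carbonic anhydrase of capillaries, did not pass and varied between libraries (55.4, 314 and 147 CPM in vECs). Calls ended for Aqp1 without Foxn1Lin male (1.26) and without the wild type (0.79) and Fabp4 without Foxn1Lin male (-1.09) against ECs outside both gates, and against arterial-gated ECs for Aqp1 without Foxn1Lin male (0.76) and without the wild type (0.47).

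Arterial genes that the rule did not read were lower against arterial-gated ECs in 11 of 18 members and higher in 3 (median -0.70). The arterial gate read Gja5, Gja4 and Sox17, so this contrast was set up to separate ECs by arterial genes. Capillary genes were high in the gated class too, with 13 of 16 lower in vECs (median -1.71). The part of arterial cells in it was not tested. Against ECs outside both gates, 5 were lower and 5 higher (median -0.25), and against all other ECs 5 and 3 of 19 (median -0.13). Efnb2, the arterial ephrin, was at 59.2, 19.9 and 35.9 CPM in vECs, 101, 164 and 230.3 in arterial-gated ECs and 112, 142 and 205 outside both gates (-2.06 ± 0.34 and -1.84 ± 0.31). The Notch target Hey1 was at 23.9, 2.98 and 7.57 CPM against 66.2, 50.9 and 60.3 in arterial-gated ECs and 44.7, 30.4 and 32.6 outside both gates (-2.55 ± 0.36 and -1.67 ± 0.38), and the Notch ligand Jag2 was lower as well (-1.87 ± 0.34 and -1.33 ± 0.36). For these 3 genes no vEC sum reached the other classes. A few members of the arterial list went the other way. Eln was at 209, 165 and 166 CPM in vECs, 42.8, 71.0 and 88.7 in arterial-gated ECs and 42.0, 73.8 and 55.7 outside both gates, above all others (1.60 ± 0.22 and 1.95 ± 0.20). The matrix protein Fbln2 (0.63 ± 0.16 and 1.07 ± 0.15) and the transcription factor Mecom (0.83 ± 0.17 and 0.81 ± 0.15) were higher too. Among 9 lymphatic entries, Flt4, the receptor of VEGF-C, was lower (34.0, 11.9 and 11.4 CPM in vECs, 67.9, 50.6 and 58.9 outside both gates, -1.54 ± 0.25), and the lymphatic hyaluronan receptor Lyve1 was at 0, 0 and 2.37 CPM. Of the lymphatic members tested, 0 were higher and 3 lower of 7 against all other ECs (median -1.07), 1 and 1 of 2 against arterial-gated ECs (median 2.08) and 1 and 1 of 3 outside both gates (median -0.60). The higher entry in both of the latter was Ccl21a, described with the libraries. The rule bars Prox1 from vECs but not from all other ECs, so nothing was read from the lower genes there. Without ECs bearing Prox1, Epcam or Pdgfra, 0 of 5 were higher and 1 lower (median 0.04). With library totals in place of TMM, Fbln2 did not pass against arterial-gated ECs (0.49). Calls in that comparison ended for Fbln2 without Foxn1Lin male (0.75) and without the wild type (0.69) and Mecom without Foxn1Lin male (0.62), and against ECs outside both gates for Hey1 without Foxn1Lin male (-1.21) and without the wild type (-1.67), Jag2 without Foxn1Lin male (-0.92) and without the wild type (-1.17) and Mecom without Foxn1Lin male (0.77) and without the wild type (0.72).

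General endothelial genes went both ways. Of 16 list members, 6 were higher and 1 lower than in all other ECs (median 0.50), 1 and 4 against arterial-gated ECs (median -0.11) and 3 and 3 outside both gates (median -0.0044). Cldn5, the main claudin of endothelial tight junctions, was lower in all 3 comparisons. It was at 524, 60.6 and 83.3 CPM in vECs, 2184, 979 and 835 in arterial-gated ECs and 1390.4, 732 and 561 outside both gates (-2.96 ± 0.30 and -2.29 ± 0.35), and its vEC sums were lower than every sum of these classes. Kdr, the main VEGF receptor, was lower against these classes (-1.26 ± 0.14 and -1.33 ± 0.13) and did not pass against all other ECs (-0.57) as a whole, but passed without ECs bearing Prox1, Epcam or Pdgfra (-1.14) and with library totals (-0.85). Emcn, a sialomucin of veins and capillaries, was at 571, 632 and 608 CPM against 573, 555 and 585 outside both gates and did not pass there (0.34).

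The cargo of Weibel-Palade bodies and the clotting system was higher, next to Selp and Vwf, which the rule used. Of 21 list members, 10 were higher and 3 lower than in all other ECs (median 0.56), 11 and 2 of 19 against arterial-gated ECs (median 0.71) and 13 and 0 of 20 outside both gates (median 0.88). F8, coagulation factor VIII, which circulates bound to von Willebrand factor, was at 129.7, 209.8 and 266 CPM in vECs, 6.24, 10.6 and 15.9 in arterial-gated ECs and 11.2, 7.96 and 31.5 outside both gates (4.38 ± 0.17 and 3.87 ± 0.26). A F8 UMI was found in 40.4%, 54.5% and 67.6% of vECs against 1.83%, 1.39% and 1.97% of fibroblasts. Angpt2, the stored antagonist of the receptor Tek, was at 105, 233 and 182 CPM against 87.5, 20.9 and 50.6 in arterial-gated ECs and 57.2, 15.9 and 49.4 outside both gates (1.97 ± 0.47 and 2.30 ± 0.47). The vEC sums of F8 and Angpt2 lay above all others. So did those of the anticoagulant genes Procr, the protein C receptor (2.51 ± 0.31), Tfpi, the inhibitor of the tissue factor pathway (1.26 ± 0.20), and Entpd1 (CD39), which breaks down extracellular ATP (1.62 ± 0.16), and of Rab27a, a small GTPase of granule release (1.71 ± 0.19), and Ptgs1, a cyclooxygenase (1.77 ± 0.17). Thbd, thrombomodulin, was lower against arterial-gated ECs (-0.86 ± 0.18; 133, 122 and 151 CPM against 177, 315 and 344). The platelet genes Pf4, Ppbp, Gp9, Gp1bb, Gp5 and Treml1 were at 0 in the Foxn1Lin male vECs and the summed platelet list was at 22.7, 10.9 and 5.20 CPM in vECs against 17.4, 26.4 and 13.4 in all other ECs, with 0 of 2 tested members called. Calls against arterial-gated ECs ended for Angpt2 without Foxn1Lin male (1.20) and without the wild type (1.89) and Thbd without Foxn1Lin male (-0.66) and without the wild type (-0.82).

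Inflammatory genes were more often higher than lower. The list of 27 had 12 higher and 6 lower against all other ECs (median 0.43), 11 and 3 of 26 against arterial-gated ECs (median 0.33) and 13 and 2 of 26 outside both gates (median 0.62). Csf3, the granulocyte growth factor, was at 252, 350.4 and 214 CPM in vECs, 7.74, 7.22 and 12.5 in arterial-gated ECs and 4.25, 5.79 and 1.58 outside both gates. Its sums did not overlap (5.06 ± 0.24 and 6.31 ± 0.24). A Csf3 UMI was found in 21.2%, 35.6% and 25.8% of vECs, 2.62%, 8.67% and 4.06% of all other ECs and 1.97%, 1.90% and 1.59% of fibroblasts. The feedback inhibitor of NF-kB Nfkbia was at 2106, 2911 and 1969 CPM against 969, 1552 and 1043 outside both gates (1.24 ± 0.14), and these sums did not overlap, though those of arterial-gated ECs did (0.64 ± 0.16). A second inhibitor, Tnfaip3 (A20), was at 122, 355 and 453 CPM against 52.4, 91.1 and 169.7 (1.80 ± 0.19), higher within each library but overlapping between libraries, as was Nfkbiz (0.97 ± 0.14). Il6 was at 133, 252 and 274 CPM against 49.9, 222 and 181 (0.97 ± 0.21) and did not pass against arterial-gated ECs (0.43). The antibacterial protein Pglyrp1 was higher by 3.27 ± 0.30. The chemokine Cxcl2, which draws neutrophils, was lower (23.9, 4.97 and 6.15 against 36.7, 36.2 and 22.6 CPM, -1.44 ± 0.39). Ccl7, Ccl2, C3 and Cxcl1 were lower against all other ECs (-3.45, -1.56, -2.15 and -0.93), and of these Ccl7 was also lower against ECs outside both gates (-1.44). Without ECs bearing Prox1, Epcam or Pdgfra, none of these 4 passed (-0.91, -0.47, -0.43 and -0.85). With library totals in place of TMM, Il6 did not pass against ECs outside both gates (0.70). Calls in that comparison ended for Cxcl2 without Foxn1Lin male (-0.92) and without the wild type (-1.44), Il6 without the wild type (0.94) and Ccl7 without Foxn1Lin female (-1.57), without Foxn1Lin male (-1.24) and without the wild type (-1.54), against arterial-gated ECs for Nfkbia without Foxn1Lin male (0.74) and without the wild type (0.49), and against all other ECs for Ccl2 without Foxn1Lin male (-1.21) and without the wild type (-1.06) and Cxcl1 without Foxn1Lin male (-0.61) and without the wild type (-0.76).

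Since several of these genes are known targets of NF-kB, the 250 bases before each start site were searched for its consensus on both strands, in RefSeq promoters of GRCm38.p6. Of 98 genes sought, 73 had promoters in the table, 85 in all, and 13 of these promoters, of 13 genes, held a match. The genes sought took in the inflammatory and adhesion lists, which hold known NF-kB targets, so nothing was read from their share. The share over all 32851 promoters was 3.90%. It was 5.67% of 1270 promoters of genes higher in vECs than in all other ECs, 5.37% of 1472 promoters of genes lower and 4.77% of 13137 promoters of genes tested, and the shares of higher and lower genes were close to each other. The promoters of 3 members that were higher than in ECs outside both gates, and that held a match close to the start site, are shown to place these motifs, with the matches in capitals. Nfkbia (chr12:55492648-55492897, minus strand) has a match whose first base lies at -29 from the start, Tnfaip3 (chr10:19015411-19015660, minus strand) has matches at -125 and -12, and Il6 (chr5:30012864-30013113, plus strand) at -44.
Nfkbia: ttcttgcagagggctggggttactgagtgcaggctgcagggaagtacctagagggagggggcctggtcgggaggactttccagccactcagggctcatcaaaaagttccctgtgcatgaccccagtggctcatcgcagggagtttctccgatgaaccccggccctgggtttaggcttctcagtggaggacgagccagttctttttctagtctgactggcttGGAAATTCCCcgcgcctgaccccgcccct
Tnfaip3: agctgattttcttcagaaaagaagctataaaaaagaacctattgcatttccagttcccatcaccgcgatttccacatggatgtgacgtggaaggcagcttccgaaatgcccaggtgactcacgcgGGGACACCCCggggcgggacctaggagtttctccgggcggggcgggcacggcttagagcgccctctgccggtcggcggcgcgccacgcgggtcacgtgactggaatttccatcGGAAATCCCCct
Il6: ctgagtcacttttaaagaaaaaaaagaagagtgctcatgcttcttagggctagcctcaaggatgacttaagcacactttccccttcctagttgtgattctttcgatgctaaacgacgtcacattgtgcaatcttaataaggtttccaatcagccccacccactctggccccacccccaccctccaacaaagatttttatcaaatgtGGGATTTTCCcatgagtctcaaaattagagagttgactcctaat
A match is a string of letters and not evidence of binding. Il1r1, Pglyrp1 and the lower genes Cxcl1, Cxcl2 and Steap4 also held matches, while Sele, Selp and Glycam1 held none in this window. Vcam1 and Csf3 had no promoter in the table.

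The direction of MHC class II genes depended on the class compared. Against all other ECs, 0 of 8 were higher and 6 lower (median -1.14). Against arterial-gated ECs 6 were higher and 0 lower (median 1.37), and outside both gates 5 and 0 (median 1.43). Cd74, the invariant chain, was at 354, 900.2 and 1055 CPM in vECs, 687, 1476 and 2560.1 in all other ECs, 97.6, 151 and 431 in arterial-gated ECs and 187, 108 and 433 outside both gates. Its log2 difference was -0.70 ± 0.17 against the first and 2.05 ± 0.22 and 1.98 ± 0.39 against the others. The alpha chain H2-Aa followed, at -1.22, 1.63 and 1.40. All other ECs include barcodes with UMIs of Epcam, and thymic epithelium expresses these genes. The epithelial keratin Krt8 was higher in vECs than in arterial-gated ECs as well (60.5, 7.46 and 7.57 CPM against 29.3, 4.18 and 5.69, 0.96 ± 0.26) and did not pass outside both gates (-0.48). Its sums overlapped, and the call against arterial-gated ECs ended for Krt8 without Foxn1Lin female (0.81), without Foxn1Lin male (0.96) and without the wild type (1.05). The part of epithelial RNA in the MHC class II values was not tested. When barcodes with Prox1, Epcam or Pdgfra were left out of the comparison, where 10.6% of 11735 genes were higher and 7.68% lower, Cd74 was higher by 1.43 ± 0.16 and H2-Aa by 1.12 ± 0.18, with 5 of 8 members higher and 0 lower. Cd74 was also abundant in barcodes not called as cells (1324, 3578 and 2214 CPM), and a Cd74 UMI was found in 58.7%, 75.9% and 84.0% of vECs against 37.5%, 32.0% and 39.8% of fibroblasts. The part of free RNA in its level was not tested. Against all other ECs, a call ended for Cd74 without Foxn1Lin female (-0.64) and without Foxn1Lin male (-0.77).

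Among the VEGF, angiopoietin and apelin genes, 3 of 17 were higher and 3 lower against all other ECs (median -0.12), 2 and 7 against arterial-gated ECs (median -0.38) and 3 and 6 outside both gates (median -0.27). The co-receptors Nrp2 and Nrp1 went opposite ways. Nrp2, which venous and lymphatic endothelium use, was at 511, 511 and 639 CPM against 351, 293 and 413 outside both gates (0.92 ± 0.14), and Nrp1 was at 479, 253 and 352 against 751, 902 and 1115 (-1.12 ± 0.21), neither with overlap. Apln, a ligand of sprouting capillary cells, was nearly absent from vECs at 2.52, 0 and 0.473 CPM against 38.7, 6.84 and 24.4 in arterial-gated ECs and 18.8, 21.0 and 26.8 outside both gates (-4.72 ± 0.49 and -4.76 ± 0.65). The tip cell gene Esm1, named by the rule on size below, was at 5.04, 0.497 and 0.473 CPM against 37.7, 52.1 and 73.0 (-5.11 ± 0.57). Calls ended for Nrp2 without Foxn1Lin male (0.86) and Nrp1 without Foxn1Lin male (-0.89) in this comparison.

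Matrix genes were mixed, with 5 of 21 higher and 3 lower against all other ECs (median 0.28), 4 and 6 against arterial-gated ECs (median -0.19) and 5 and 3 outside both gates (median 0.16). Col15a1, a collagen of the outer basement membrane, was at 350.1, 583 and 700.1 CPM in vECs, 59.8, 90.4 and 188 in arterial-gated ECs and 66.3, 82.4 and 178 outside both gates (2.52 ± 0.17 and 2.65 ± 0.18). The proteoglycan Vcan was at 61.7, 72.1 and 92.7 CPM against 2.15, 0 and 0.569 in arterial-gated ECs and 23.8, 2.17 and 5.78 outside both gates (6.03 ± 0.45 and 3.07 ± 0.56), and neither gene overlapped. The laminin alpha chains went opposite ways. Lama5, the alpha chain of laminins that slow leukocyte passage, was higher than in ECs outside both gates (69.3, 106 and 96.5 against 53.9, 54.2 and 71.5 CPM, 0.85 ± 0.18), and Lama4, the alpha chain of the permissive laminin, was lower (141, 32.3 and 63.4 against 242, 221 and 292 CPM, -1.63 ± 0.31). The vEC sums of Lama5 overlapped with the others and those of Lama4 lay below them. A call ended for Lama5 without Foxn1Lin male (0.68) and without the wild type (0.85).

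Of 19 immediate early and stress genes, 0 were higher and 6 lower against all other ECs (median -0.40), 0 and 14 against arterial-gated ECs (median -0.71) and 1 and 8 outside both gates (median -0.28). Klf2, the transcription factor that laminar flow induces, was at 389, 426 and 228 CPM in vECs, 957, 1269 and 781 in arterial-gated ECs and 858, 1224 and 541 outside both gates (-1.41 ± 0.14 and -1.05 ± 0.14). The chaperone Hspa1a was at 126, 112 and 182 CPM against 379, 503 and 621 in arterial-gated ECs and 328, 459 and 319 outside both gates (-1.70 ± 0.16 and -1.14 ± 0.25). The phosphatase Dusp1 (-1.02 ± 0.20) and the antiproliferative gene Btg2 (-0.97 ± 0.22) were lower too, all 4 without overlap, while Fos did not pass against ECs outside both gates (-0.28). These genes respond to tissue dissociation, which was not measured apart. Of 16 interferon response genes, 1 was higher and 2 lower against all other ECs (median -0.08), 1 and 6 against arterial-gated ECs (median -0.45) and 3 and 2 outside both gates (median -0.19). Rsad2, viperin, was the member that was lower throughout, at 64.2, 64.6 and 140.5 CPM against 322, 351 and 471 outside both gates (-1.88 ± 0.20). The guanylate-binding protein Gbp4 was higher there (0.82 ± 0.18) but not against arterial-gated ECs (0.39). With library totals in place of TMM, Gbp4 did not pass (0.55) and Fos did (-0.54). In the comparison with ECs outside both gates, calls ended for Hspa1a without Foxn1Lin male (-0.81), Dusp1 without Foxn1Lin male (-0.73), Btg2 without Foxn1Lin male (-0.71) and Gbp4 without Foxn1Lin male (0.58).

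No senescence or cell cycle gene was higher. Of 12, 5 were lower (among them Cdkn2a and Cdkn2b, which had too few UMIs to test in the other 2 comparisons and without ECs bearing Prox1, Epcam or Pdgfra) against all other ECs (median -1.47), 5 of 9 against arterial-gated ECs (median -0.91) and 2 of 9 outside both gates (median -0.66). Cdkn1c (p57), a cell cycle inhibitor, was at 47.9, 9.94 and 10.4 CPM against 258, 116 and 66.7 outside both gates (-2.59 ± 0.22), and the stress cytokine Gdf15 at 5.04, 6.46 and 2.84 against 8.70, 39.1 and 17.9 (-1.97 ± 0.39). Cdkn1a (p21) did not pass there, at 531, 414 and 329 CPM against 836, 876 and 413 (-0.43). Cdkn2a (p16) was at 2.52, 0 and 0 CPM in vECs and 2.51, 2.17 and 3.15 outside both gates, too few to test there. With library totals, Cdkn1a passed (-0.69). A call ended for Gdf15 without Foxn1Lin male (-1.58).

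**Figure D3:**
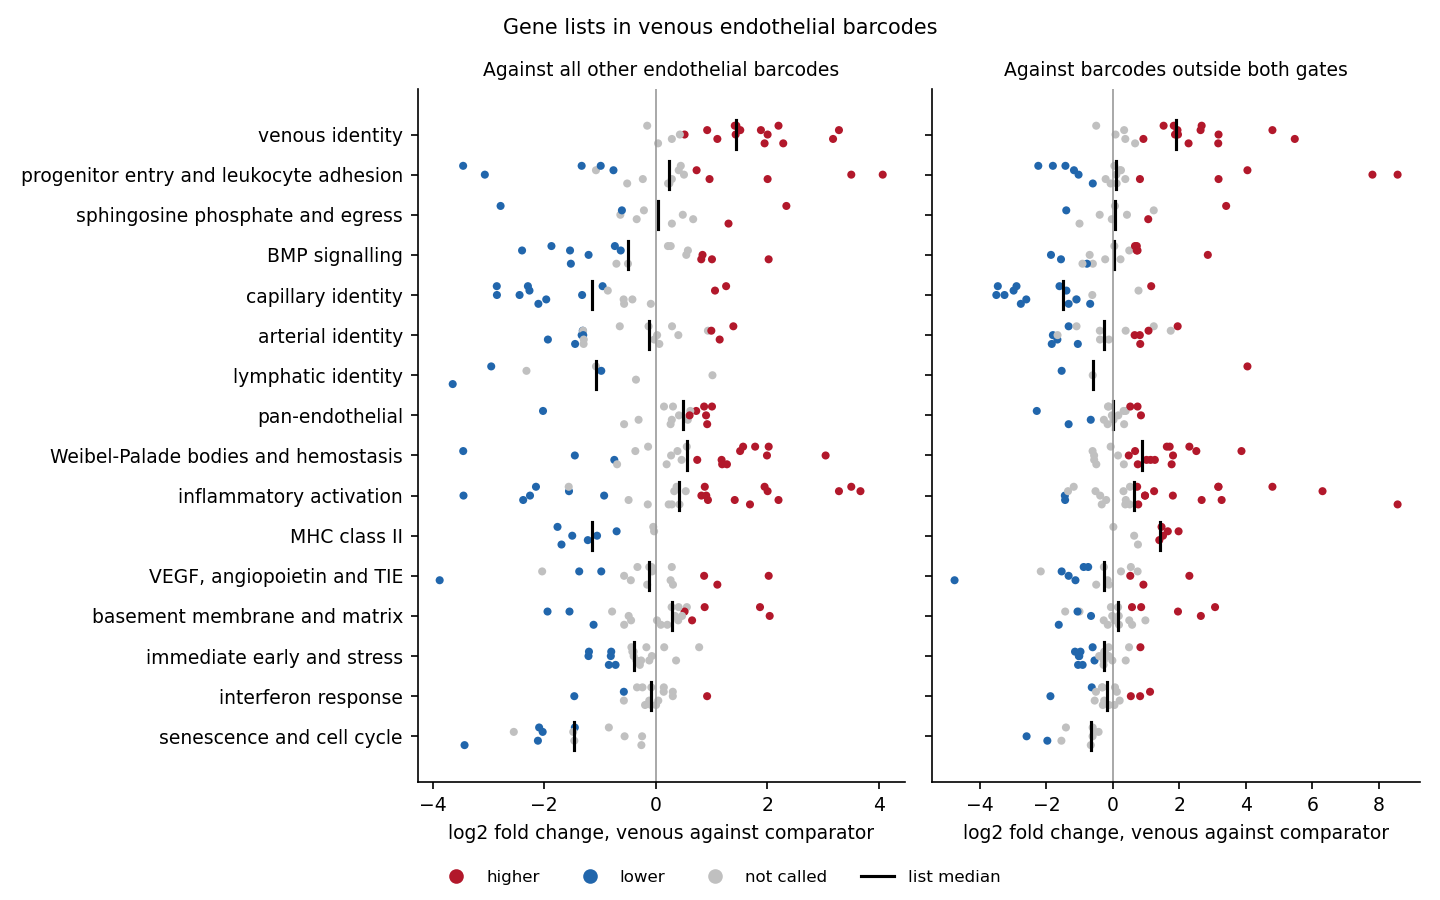
Log2 differences of the members of 16 gene lists, vECs against all other ECs (left) and against ECs outside both gates (right); red points were higher and blue points lower at an adjusted p under 0.05, grey points were not called and the black line is the list median. Venous identity members lie to the right on both sides (medians 1.44 and 1.91), capillary members to the left (-1.14 and -1.50), and MHC class II members change side (-1.14 and 1.43).

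Genes of other cell types were measured in the vECs as a check. The 12 hematopoietic markers summed to 63.0, 29.8 and 73.8 CPM in vECs against 263, 181 and 535 in all other ECs, and Tyrobp was at 0 in the vECs of all libraries; 0 of 12 tested were higher and 9 lower against all other ECs, 0 and 9 of 10 outside both gates, and 0 and 1 of 6 against arterial-gated ECs. The 7 fibroblast genes summed to 586, 226 and 102 CPM against 1866, 498 and 709, with 0 higher and 7 lower against all other ECs, 0 and 3 of 6 outside both gates, and Dcn alone higher against arterial-gated ECs (1.71). The epithelial genes summed to 295, 213 and 293 CPM against 1037, 993 and 2290.1, with 0 of 8 higher and 7 lower. The rule keeps Epcam and Pdgfra out of the vECs but not out of all other ECs, so nothing was read from the lower fibroblast and epithelial genes there. With such ECs left out, 1 of 5 epithelial genes (H2-Aa) was higher and 0 lower, and 0 and 2 of 7 fibroblast genes. In arterial-gated ECs they summed to 149, 57.0 and 167 CPM, below the vECs, and 2 of 3 tested were higher in vECs and 0 lower, namely Krt8 and H2-Aa, which is also a MHC class II gene. Outside both gates they were at 342, 73.0 and 209.7 CPM, and 1 of 4 tested, H2-Aa, was higher and 0 lower. The mesothelial genes were at 149.9, 0 and 2.37 CPM against 126, 4.86 and 45.7, 0 of 6 called, with nearly all UMIs in Foxn1Lin female. Of the mural genes, which summed to 513, 314 and 366 CPM against 769, 400.3 and 304, 1 was higher and 3 lower. The higher one was Tagln (transgelin, 295, 272 and 237 CPM in vECs against 65.7, 73.8 and 7.36 outside both gates, 2.93 ± 0.50), while the smooth muscle genes Acta2 (-0.41) and Myh11 (-0.23) did not pass. The part of such cells in the results was not tested.

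Outside the lists, the genes with the largest differences were named by a rule on size (same direction in all libraries, at least 100 UMIs). Against all other ECs the higher 10 were Glycam1, Serpina1e, Kcng3, Olr1, Csf3, F5, Sele, Rasgef1a, Adarb2 and Gm16587, from 4.07 to 3.33 on the log2 scale. F5, coagulation factor V, was at 91.9, 301 and 323 CPM in vECs, 6.83, 55.2 and 23.9 in all other ECs, 0.86, 0.76 and 1.14 in arterial-gated ECs and 1.74, 1.45 and 0.525 outside both gates (3.57 ± 0.31, 7.86 ± 0.29 and 7.20 ± 0.42). Few UMIs of it were found in the last 2 of these classes. By position, Gm16587 (chr1:164143432-164146366, minus strand) lies within Selp (chr1:164115264-164150026, plus strand) on the other strand, and F5 (chr1:164151838-164220277, plus strand) begins just past the end of Selp on the same strand. Introns were counted, and the part of Selp reads in the counts of F5 and Gm16587 was not tested. Serpina1e, an alpha-1-antitrypsin gene whose near-identical copies can share reads, was at 111, 32.3 and 29.8 CPM against 0.387, 0 and 0 outside both gates (8.25 ± 0.41). Olr1, the scavenger receptor of oxidized lipoprotein, was at 30.2, 106 and 146 CPM against 3.25, 32.9 and 1.49 in all other ECs (3.77 ± 0.84, adjusted p = 0.015), and 22 of its 24 UMIs in Foxn1Lin female were in a single barcode. Fgf23 (chr6:127072902-127081408, plus strand), the hormone of phosphate balance, led the genes higher than in arterial-gated ECs. It was at 25.2, 466 and 480.1 CPM in vECs, 0.215, 0.38 and 0 in arterial-gated ECs and 0.387, 0 and 4.20 outside both gates (9.93 ± 0.40 and 7.67 ± 0.44). Both of these classes held at most 1 UMI of Selp, Ackr1 and Vwf by their definition. Fgf23 was not confined to vECs: ECs that met both gates and had at least 10 Glycam1 UMIs (1, 1 and 4 barcodes) held it at 252, 379 and 443 CPM. A Fgf23 UMI was found in 6.73%, 44.5% and 37.1% of vECs against 0.271%, 1.01% and 0.826% of fibroblasts. After Fgf23, Serpina1e, Glycam1 and F5, the regulator of G protein signalling Rgs20 completed that set (7.19 ± 0.61). The 10 genes with the largest negative differences against all other ECs (Ly6c2, Rnf180, Scn1a, Cd83, Cadps, Gm10165, Cdh9, Gm15056, Iglv1 and Il12a) had no UMI in any vEC, so that with 3 counts over the group they were at least 24.2-fold to at least 42.7-fold lower. They passed the filter on low counts through all other ECs alone. That class takes in barcodes with Prox1, Epcam or Pdgfra, which the rule bars from the vECs, so nothing was read from these bounds. Against arterial-gated ECs the lower set was Ssu2, Sez6l2, Apln and the hemoglobin genes Hbb-bt and Hbb-bs (-5.75 to -4.78). Against ECs outside both gates it was Dntt, Lat, Trbc1 and Cd3d, genes of developing T cells (-6.04 to -5.19), and Esm1.

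The vECs were also set side by side by Selp itself, since P-selectin marks the portal endothelium through which progenitors enter. There were 26, 13 and 26 vECs without a Selp UMI, of which 25, 11 and 25 met the rule through Vwf alone. The split used a gene of the rule, and the lack of Selp and entry through Vwf alone cannot be told apart, so levels are given as a description with no test and support nothing. Of 5913 genes, 4.36% were called higher in Selp-bearing vECs by the same fit and 3.59% lower, and nothing was read from these calls. Totals in place of TMM moved the median log2 difference of 0.03 by -0.14 and gave 215 genes higher and 276 lower in place of 258 and 212. Plvap was at 1034, 1708 and 1345 CPM in Selp-bearing and 201, 513 and 529 in Selp-free vECs, Lrg1 at 1272, 2390.0 and 821 against 119.6, 839 and 184, and Enpp2 at 1028, 970.1 and 1787 against 69.2, 113 and 675. The sums of Plvap and Enpp2 did not overlap, and those of Lrg1 did. Fgf23 was at 31.5, 486 and 532 CPM in the Selp-bearing vECs and had no UMI in the others, at least 65.4-fold higher with 3 counts over the group. Among the same top genes, Gm16685, Ptafr and Serpina1e were also without a UMI in Selp-free vECs, at least 15.7-fold, 9.91-fold and 7.16-fold higher. On the other side lay Sema3g, an arterial semaphorin, at 9.45, 5.18 and 6.29 CPM in Selp-bearing and 289, 250.3 and 131 in Selp-free vECs, the Notch target Hey1 at 4.72, 1.55 and 3.67 against 101, 37.5 and 43.7, Cldn5 at 315, 39.9 and 28.3 against 1359, 563 and 592 and Rbp7, a retinol-binding protein, at 44.1, 8.80 and 8.91 against 548, 300.4 and 63.1. The sums of these 4 genes did not overlap. The lower set by size was completed by the glutamate transporter Slc1a1 and the ephrin Efna5, whose sums overlapped. Bmp4 was at 40.9, 68.8 and 52.9 CPM against 44.1, 12.5 and 4.86, with overlap as well.

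**Figure D4:**
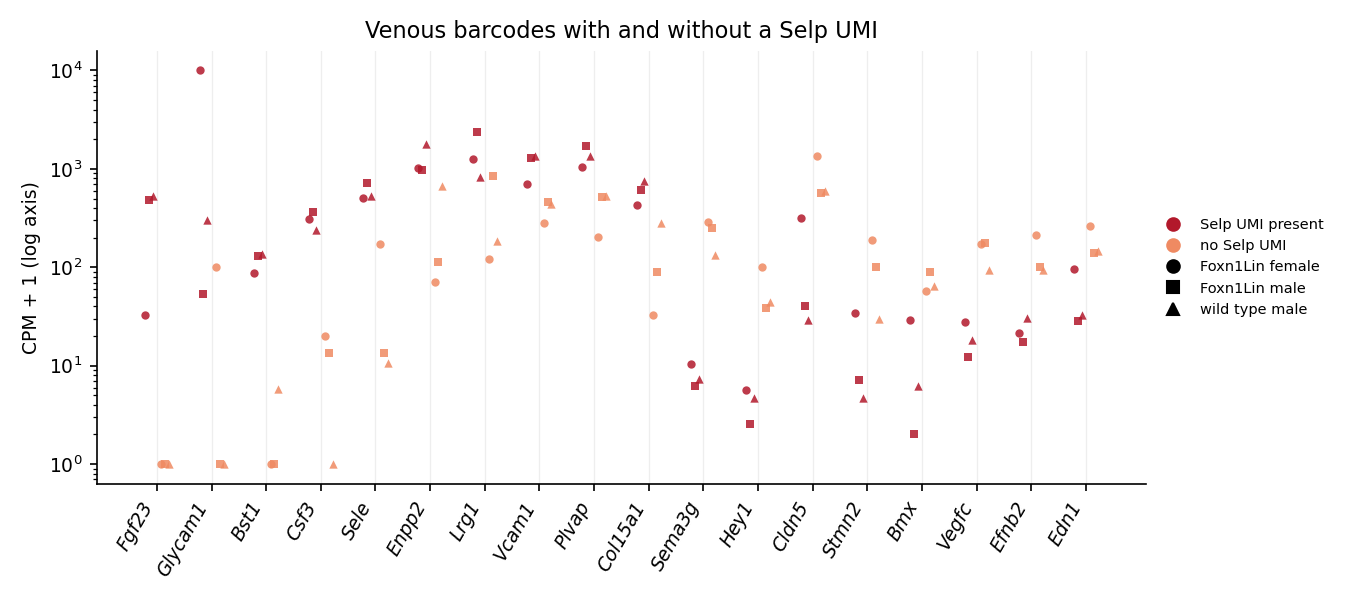
CPM + 1 on a log axis of 18 genes in vECs with and without a Selp UMI, 1 point per library. The points of Fgf23, Bst1, Csf3, Sele and Enpp2 with Selp lie above all those without it, and the points of Sema3g, Hey1, Cldn5 and Bmx below.

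Between libraries only ratios were available, with 95% Poisson intervals. Of 9086 genes with at least 20 UMIs over both libraries, 2.28% were 4-fold or more higher in the vECs of Foxn1Lin female than in those of Foxn1Lin male and 0.869% 4-fold or more lower, or 207 and 79 genes, which turned to 87 and 111 with barcodes of other cell types left out. Between Foxn1Lin male and the wild type, 0.4% of 9740 genes were 4-fold higher and 0.462% lower, or 39 and 45 genes, which turned to 42 and 26 without barcodes of other cell types, 43 and 26 without the fullest 3.9%, 43 and 42 without barcodes rich in Glycam1 and 19 and 8 thinned to 2000 UMIs. This was fewer than between the Foxn1Lin libraries, whose female vECs held the fewest UMIs. Leading the genes higher in Foxn1Lin female were Ccl21a at 2079 against 2.98 CPM, a log2 ratio of 9.45 (95% interval 8.32 to 10.89), and Glycam1 at 8026 against 50.2 CPM, 7.32 (95% interval 7.04 to 7.62). In the other ECs the same ratios were 0.07 and 2.70. Among vECs with fewer than 10 Glycam1 UMIs, Ccl21a was at 195 against 3.08 CPM and Glycam1 at 44.5 against 13.9. Ccl21a has near-identical copies, so its reads may be split between them. Top2a followed, with 34 UMIs against 1, of which 23 were in a single barcode. Leading the lower genes was Fgf23 at 25.2 against 466 CPM, -4.21 (95% interval -4.93 to -3.57), with a ratio of -4.56 in the other ECs, followed by Serpina3n and Matn2 with 1 UMI each in Foxn1Lin female. Between the male libraries, tdT-WPRE_trans, the reporter, was at 45.7 CPM for Foxn1Lin male and 0 for wild type, at least 32.2-fold higher. Next were the predicted genes Gm26632 (25.8 against 0.946 CPM) and Gm49756 (12.9 against 0.946). The lower genes were Ctnna3 (0.994 against 31.2 CPM), Emb (0.497 against 13.2) and Gm5127 (0.497 against 12.3). The leukocyte gene Ptprc and the smooth muscle gene Myh11 were also lower in Foxn1Lin male, at 2.49 against 31.7 CPM and 4.47 against 42.1. The hemoglobin gene Hbb-bs was at 385, 26.3 and 0 CPM in vECs.

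Glycam1 (chr15:103562759-103565081, minus strand) was held by few cells. In Foxn1Lin female, 9 of the 104 vECs had at least 10 Glycam1 UMIs and held 6344 of its 6373 UMIs, 1524 of the 1651 UMIs of Ccl21a, 25 of the 31 of Fut7 and 10 of the 13 of Chst4. These are genes of high endothelial venules, the vessels by which lymphocytes enter lymph nodes: a mucin, a chemokine, and a fucosyltransferase and a sulfotransferase that build the ligands of L-selectin. The same 9 barcodes had Ackr1 at 906 CPM, Vwf at 260.0 and Madcam1 at 0, with Fgf23 at 3 UMIs and Bmp4 at 1. Their median depth was 20381 UMIs against 5908 in the other 95 vECs of the library, and the part of doublets was not tested. The male libraries had 3 such vECs each, with 74 Glycam1 UMIs for Foxn1Lin and 571 for wild type, and these held 0 UMIs of Chst4 in both, 0 and 1 of Fut7 and 0 and 2 of Ccl21a. Over all ECs, 11, 5 and 7 barcodes had at least 10 Glycam1 UMIs. The 4 of the wild type that were not venous met both gates and held 305 UMIs of Glycam1, 6 of Chst4 in 2 barcodes and 37 of Ccl21a. A Glycam1 UMI was found in 26.9%, 8.90% and 2.82% of vECs and in 14.4%, 0.127% and 0.191% of fibroblasts, and Glycam1 was at 448, 17.6 and 9.54 CPM in uncalled barcodes. The female share in all other ECs was 14.4% as well. The log2 difference of Glycam1 against all other ECs, 4.07 ± 0.79 (adjusted p = 0.00876), was 2.04 (adjusted p = 0.0325) without ECs that had at least 10 Glycam1 UMIs, and the calls against arterial-gated ECs (8.75 ± 0.32) and ECs outside both gates (7.81 ± 0.43) were lost (2.13, adjusted p = 0.0537, and 1.34, adjusted p = 0.173). The call against all other ECs ended for Glycam1 without the wild type (4.47).

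**Figure D5:**
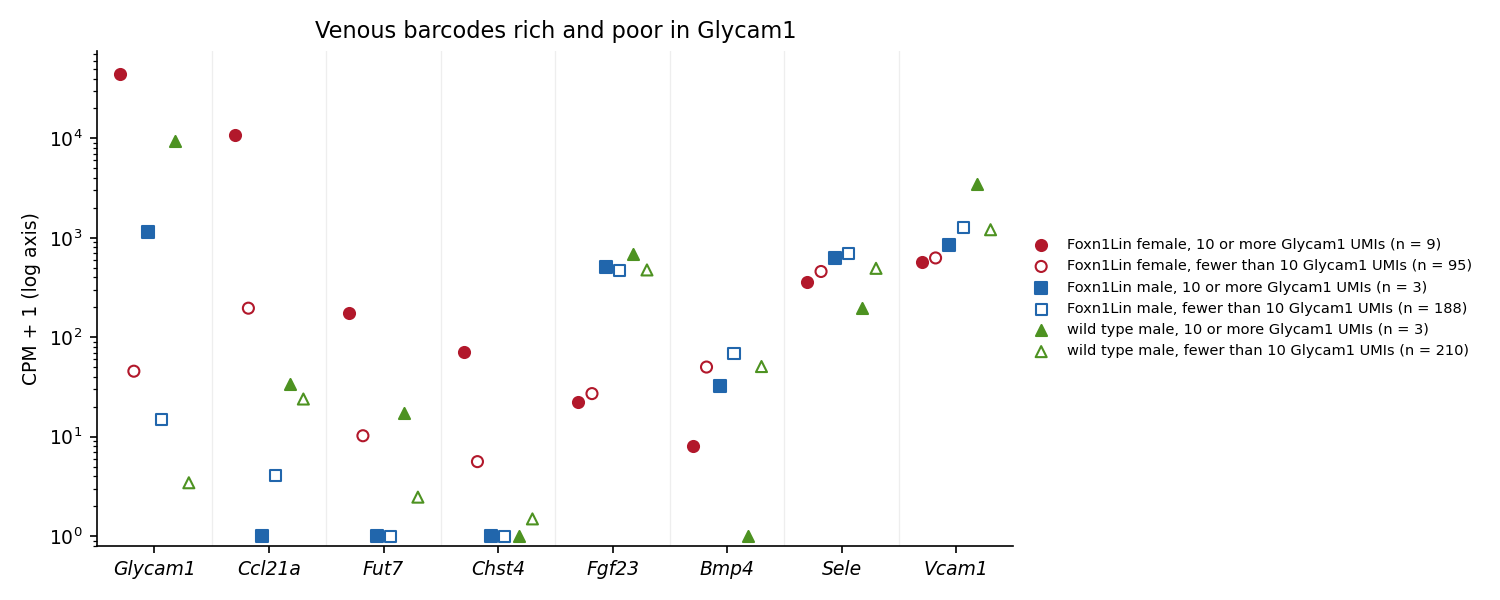
CPM + 1 on a log axis of 8 genes in vECs with at least 10 Glycam1 UMIs (filled; 9, 3 and 3 barcodes) and with fewer (open; 95, 188 and 210), by library. Ccl21a, Fut7 and Chst4 were highest in the filled points of Foxn1Lin female.

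A reporter UMI was found in 27.9% of the Foxn1Lin female vECs (95% interval 19.5 to 37.5) and 29.8% of the Foxn1Lin male vECs (23.5 to 36.9). In the other ECs it was 24.6% and 34.1%, in fibroblasts 15.4% and 13.4% and in epithelial cells 90.1% and 94.2%. The wild type had 0 of 213 vECs, which allows a share of up to 1.41% by a limit of 3 counts and 1.72% by the Clopper-Pearson interval. With each barcode thinned to 2000 UMIs, which left out 3 vECs in each Foxn1Lin library, the shares were 8.91% and 9.04% in vECs, 11.9% and 11.3% in the other ECs and 4.58% and 4.31% in fibroblasts. The intervals of vECs and other ECs overlapped at 2000 UMIs (4.16 to 16.2 against 10.6 to 13.3 in Foxn1Lin female, and 5.36 to 14.1 against 9.14 to 13.8 in Foxn1Lin male). The reporter was at 237 and 554 CPM in uncalled barcodes, above its level in vECs (61.7 and 45.7), and no Foxn1 history was read from a UMI of it.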

How the data were processed

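Single-cell RNA was measured in 3 libraries of CD45- thymic stroma (10x, 3′). The authors aligned reads with Cell Ranger (7.01 in the submitters' processing notes, to a custom mm10 reference with the tdTomato reporter, introns counted) and deposited UMI counts per gene and barcode as filtered and raw matrices, with no normalization. The headers of the raw matrices name another version, but all called barcodes held the same counts in both matrices. Gene positions are from GENCODE annotation of GRCm38. The members and the gene lists were chosen with earlier results of these data known. The study's own test took cells as replicates and was not used here.

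UMI counts were summed per library and class and compared with edgeR 4.0.16 in R 4.3.3 (quasi-likelihood test, TMM scaling, filterByExpr, Benjamini-Hochberg adjusted p under 0.05 over all genes tested). The library was a block, because both sums of a pair come from the same library. Genes read by the rule were left out of the tests. Each fit was tested on simulated data. Levels are CPM of the summed UMIs. Between libraries, with n = 1 a group, no test was made: CPM ratios have 95% Poisson intervals and genes needed 20 UMIs over both libraries. Shares have Clopper-Pearson intervals. Results for some list members are not reported here. Doublets were not removed: per the labels the multiplet rate is about 3.9%, and leaving out the fullest 3.9% of barcodes was an alternative, as were DESeq2 1.42.0, other scalings, no filter, no block, each library left out, thinning to 2000 UMIs, choosing members on a part of each barcode's UMIs and measuring the rest, and stricter or cleaner classes. Uncalled barcodes with 10 to 500 UMIs stood for free RNA. Genes were named by size: the 10 largest differences in each direction against all other ECs, 5 in each direction in the other tests and 3 between libraries, with at least 100 UMIs and the same sign in every library for the tests, plus members of the gene lists for venous identity, progenitor entry and adhesion, sphingosine phosphate, BMP, capillary, arterial, lymphatic and general endothelial genes, Weibel-Palade bodies, inflammation, MHC class II, VEGF, matrix, immediate early, interferon and senescence genes, and platelet, hematopoietic, mural, fibroblast, epithelial and mesothelial markers.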

Additional observations from a re-analysis of the deposited data

Results flagged for a closer look

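Several list genes lay on one side of all other ECs in the vECs of Foxn1Lin female and on the other side in both male libraries, each beyond its counting interval. The log2 ratio of CPM in vECs over all other ECs was 0.50 for the apelin receptor Aplnr in the Foxn1Lin female library, against -0.61 in the Foxn1Lin male and -1.11 in the wild type one. It was 3.44 for the chemokine Ccl21a against -5.94 and -2.48, 1.89 for the kinase Bmx against -1.91 and -1.42, 0.93 for the collagen Col18a1 against -1.81 and -1.79, and 0.90 for the topoisomerase Top2a against -4.35 and -5.14. Nid1, a basement membrane linker, went the other way at -0.40 against 0.33 and 0.42. With 1 library a group these differences were not tested, and sex, pool and library cannot be told apart. The make-up of the vECs differed as well. The rule was met by Vwf alone in 24.0%, 5.76% and 11.7% of them, and Bmx was higher in Selp-free than in Selp-bearing vECs. The part of this make-up in the differences was not tested. For Ccl21a and Top2a few barcodes held most UMIs in Foxn1Lin female. In uncalled barcodes, which no comparison used, Glycam1 was at 448.4 CPM in Foxn1Lin female against 9.54 in the wild type, and the reporter tdT-WPRE_trans at 236.9 CPM in Foxn1Lin female and 554.2 in Foxn1Lin male against 0 in the wild type.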

How the results depend on the processing

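The counts of genes called moved with the processing. Against all other ECs 2745 genes were called, 1165 with no replicate block, 1349 after thinning to 2000 UMIs and 1086 to 3330 with a library left out (1666 without Foxn1Lin male, 1086 without the wild type). Against arterial-gated ECs 2298 were called, 1496 with DESeq2, 812 with no replicate block, 1225 thinned and 1023 to 2920 with a library left out (1023 without Foxn1Lin male, 1450 without the wild type). Against ECs outside both gates 2089 were called, 887 with no replicate block, 1274 thinned and 926 to 2714 with a library left out (926 without Foxn1Lin male, 1163 without the wild type). In the comparison by Selp 470 were called, 893 with no filter on low counts, 139 with no replicate block, 289 with at least 3 UMIs of Selp, Ackr1 and Vwf, 178 thinned and 357 to 470 with a library left out. Without the pairing of sums by library, 63 calls of 51 named genes were lost and none reversed. These were C3, Ccl2, Cd74, Cxcl1, Glycam1, Gm16587, H2-Aa, Id2, Iglv1, Jam3, Olr1, S1pr3 and Sgpl1 against all other ECs, Angpt2, Aqp1, Ccl21a, Cd74, Cldn5, Csf2rb, Dcn, Fbln2, H2-Aa, Hbb-bs, Krt8, Mecom, Nfkbia, S1pr3, Spns2 and Thbd against arterial-gated ECs, Aqp1, Bmpr2, Btg2, Ccl21a, Ccl25, Ccl7, Cd34, Cd74, Cldn5, Cxcl2, Eng, Gbp4, Gdf15, Glycam1, Gpihbp1, H2-Aa, Hey1, Id1, Id3, Il6, Jag2, Klf2, Lama4, Lama5, Mecom, Nfkbiz, Podxl, Smad5 and Tnfaip3 against ECs outside both gates, and Cldn5, Efna5, Glycam1, Serpina1e and Slc1a1 by Selp. Thinning ended 12 such calls, of Ccl2, H2-Aa, Id2, Jam3 and Sgpl1 against all other ECs, Fbln2 and Nfkbia against arterial-gated ECs, and Ccl25, Flt4, Lama5, Smad5 and Tfpi against ECs outside both gates. Leaving out the fullest 3.9% of barcodes ended 10, of Ccl2, Cd74, Id2, Jam3 and Sgpl1, of Nfkbia, and of Ccl25, Ccl7, Jag2 and Lama5 in the same order of comparisons. Leaving out barcodes of other cell types ended 6 (Ccl25 and Jam3, Dcn and Fbln2, and Ccl25 and Gbp4), and library totals in place of TMM 5 (Jam3, Fbln2, and Gbp4, Il6 and Smad5). Choosing members on a part of the UMIs ended 13, those of Ccl19, Ccl25, Cxcl1, H2-Aa, Id2, Il12a, Jam3 and Sgpl1 against all other ECs and of Ccl21a, Ccl25, Cxcl2, Gdf15 and Il6 against ECs outside both gates. DESeq2 ended the calls of Iglv1, Id2 and Jam3 against all other ECs, of Angpt2, Ccl21a, Dcn and Krt8 against arterial-gated ECs, and of Ccl21a, Ccl25, Ccl7, Cxcl2 and Gdf15 against ECs outside both gates. Leaving out barcodes with at least 10 Glycam1 UMIs was chosen after seeing the data. It also ended the calls of Nfkbia against arterial-gated ECs, of Ccl7, Jag2 and Lama5 against ECs outside both gates, and of Ccl2, Id2 and Jam3 against all other ECs.

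Against all other ECs, Cd74 turned to 1.45 and 1.43, H2-Aa to 1.12 and 1.12, and Sgpl1 to 0.12 and 0.047 when barcodes with UMIs of other cell types, or those with Prox1, Epcam or Pdgfra, were left out, and Cd74 to 0.041 when thinned and 0.0091 when members were chosen on a part of the UMIs. That last choice also turned Krt8 to -0.80 against arterial-gated ECs and Ccl19 to 0.31 against ECs outside both gates. Between libraries, with 1 UMI each in the lower library, Serpina3n and Matn2 turned to 0.48 when thinned and Emb to 0.070 with barcodes of other cell types left out.

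The venous share in Foxn1Lin female was 5.20% among ECs without Prox1, Epcam and Pdgfra, 3.49% with at least 3 UMIs and 5.36% without barcodes of other cell types. In Foxn1Lin male it was 23.8% and 23.1% under the first and last of these and 25.6% on a part of the UMIs, and in the wild type 26.0%, 25.6% and 25.1%. The reporter share was 10.6% and 10.99% with at least 2 UMIs and 8.91% and 9.04% thinned. Genes 4-fold apart between the Foxn1Lin libraries were 286, 106 thinned and 110 with at least 50 UMIs, and between the male libraries 84, 27 and 27. The cause of these changes was not tested. The smallest sums limit the depth, those of the 104 Foxn1Lin female vECs against the other classes and of the 13 Selp-free Foxn1Lin male vECs in the comparison by Selp.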

Other observations

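Within the vECs, some genes of the lists differed in level between libraries, with log2 CPM ratios and 95% Poisson intervals that cover counting error only. Clu, the secreted chaperone clusterin, was at 1278 CPM in Foxn1Lin female against 175 in Foxn1Lin male (2.86 (95% interval 2.69 to 3.04)), with a ratio of -0.07 in all other ECs, and at 181 CPM in the wild type. Zfp36, which destabilises cytokine messenger RNA, was at 237 CPM in Foxn1Lin female against 1020.0 in Foxn1Lin male (-2.11 (95% interval -2.33 to -1.89)), with -1.56 in all other ECs. Bmp4, by contrast, was at 41.6 against 66.6 CPM (-0.68 (95% interval -1.28 to -0.12)), and Enpp2 at 836 against 936 (-0.16 (95% interval -0.29 to -0.03)), while Enpp2 differed by -1.48 in all other ECs. Between the male libraries Vcam1 was at 1246 and 1270.0 CPM (-0.03 (95% interval -0.11 to 0.05)) and Clu at 175 and 181 (-0.05 (95% interval -0.26 to 0.17)), whereas Lrg1 was at 2328 in Foxn1Lin male against 759 in the wild type (1.62 (95% interval 1.54 to 1.70)), with 1.94 in all other ECs. The mesothelial genes Upk3b and Wt1 were at 49.1 and 36.5 CPM in the vECs of Foxn1Lin female and had no UMI in those of Foxn1Lin male. In uncalled barcodes of the female library they were at 106 and 47.6 CPM.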
